A study of Mus musculus with 5 samples.

Results

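Chaperones of the HSP70 and HSP90 families and the proteins that work with them were described in cultured mouse hematopoietic stem cells (HSCs). The set was a fixed list of 10 gene symbols, Hsp90aa1, Hsp90ab1, Hspa4, Hspa8, Hspa9, Hspd1, Hspe1, Hsph1, Dnajb1 and Ahsa1. Each gene was represented by the array feature naming it alone with the highest mean over all arrays, and 9 of the 10 had such a feature, out of 22180 genes so represented. Hsp90ab1 was not analysed here. HSCs, the rare bone marrow cells from which blood is renewed, were obtained from C57BL/6 mice in a study of vitamin A, retinoic acid and stem cell dormancy. Stem and progenitor cells were cultured for 24 h either with 5 µM all-trans retinoic acid (ATRA), the ligand of the retinoic acid receptors, or with DMSO, the control. HSCs were sorted by flow cytometry after the culture, so every group is of cultured and then sorted cells, and RNA was measured on 3 arrays for DMSO and 2 for ATRA. The labels do not say that the arrays came from separate animals or cultures, so every p-value here speaks only of the spread among these 5 arrays, and that spread may be technical.

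HSP70 chaperones bind short hydrophobic stretches of unfolded proteins in a cycle driven by ATP. J-domain proteins such as DNAJB1 deliver the client and start the ATP hydrolysis, and HSP110 proteins such as HSPH1 and HSPA4 release the ADP so that the client can leave. Some clients, among them kinases and steroid receptors, pass on to HSP90, whose own ATP cycle is sped up by AHSA1. In mitochondria, HSPA9 (mortalin) pulls in newly imported proteins, which fold inside the barrel of HSPD1 (HSP60) under the lid HSPE1 (HSP10). Many of these genes are transcribed through heat shock factor 1, which binds heat shock elements in their promoters.

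The sequences shown here are those of the heat shock elements found in promoter windows of the set. Whether array values differ between genes with and without the element was not tested. A window is a short stretch around an annotated start, for Ahsa1 chr12:87266478-87266777 around the start at 87266728. Of the 10 listed genes, 6 had windows in the RefSeq promoter table (build GRCm38.p6), namely Hspa4, Hspd1, Hspe1, Hsph1, Dnajb1 and Ahsa1. A heat shock element was searched as the unit GAA alternating with its reverse complement TTC, with any 2 bases between units, on both strands. The 3-unit form, which begins with GAA on one strand and with TTC on the other, contains both 2-unit forms. It was found in windows of Hspd1, Hspe1 and Hsph1, and in 0.603% of all 32851 windows. Hspd1 and Hspe1 lie head to head and share 1 such element. The first sequence is the stretch of 215 bases between 1 of the 2 annotated starts of Hspd1, which is read to the left from 55087932, and the start of Hspe1, which is read to the right from 55088148 (chr1:55087933-55088147, plus strand). The other annotated start of Hspd1, at 55088243, lies beyond the start of Hspe1, so that from there Hspd1 is read across the Hspe1 start and the element lies after the start of Hspd1, not before it. The second is 30 bases of Hsph1 (chr5:149636279-149636308, minus strand), in which the element lies 15 bases after the nearer annotated start. Capitals mark the heat shock element, which in the first sequence has 4 alternating units, read as 2 overlapping 3-unit matches.
Hspd1 to Hspe1: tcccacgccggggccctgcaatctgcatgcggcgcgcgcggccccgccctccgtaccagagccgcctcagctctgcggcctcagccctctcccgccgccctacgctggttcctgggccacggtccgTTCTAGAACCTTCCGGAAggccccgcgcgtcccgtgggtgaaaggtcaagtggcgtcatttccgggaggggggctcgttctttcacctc
Hsph1: gctgcagaTTCTGGAAAGTTCtcctcagta

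In the windows of Hspa4, Dnajb1 and Ahsa1 neither the 3-unit nor a 2-unit form was found, which says only that these letters are not in these windows. The 2-unit forms were in 7.86% (GAA first) and 8.52% (TTC first) of all windows. The CCAAT box was in windows of Dnajb1, Hspd1 and Hsph1 and in 37.4% of all windows. A direct repeat of the retinoic acid receptor half-site AGGTCA with any 5 bases between the half-sites, searched on both strands, was in 0 windows of the set and in 3 of all windows. These matches describe letters and not binding, which was not measured.

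The arrays themselves differed between the groups, which touches every value that follows. Values spread less with ATRA, with an SD over all 41345 features of 1.77 (replicate 1) and 1.49 (replicate 2) against 1.96 to 1.97 with DMSO, and genes with high DMSO values were mostly lower with ATRA. The 466 genes whose DMSO mean lay from 10 to 11 had median differences of -1.42 in ATRA replicate 1 and -3.23 in the other. Across features, the ATRA arrays correlated at 0.730 with each other, and the DMSO arrays at 0.966 to 0.978. ATRA replicate 1 correlated with the DMSO arrays at 0.811 to 0.834, more than with ATRA replicate 2. ATRA replicate 2 correlated with the DMSO arrays at 0.602 to 0.641. The chaperone genes were among the abundant ones, with DMSO means from 7.62 to 11.67 and a median of 9.91 against 6.20 for all genes. The values were also fitted with the level trend removed, in which the smooth curve of each array against the DMSO mean was subtracted. This takes out every difference that follows the level, whatever its origin. It therefore does not measure how much of a difference is compression. In bulk RNA, fewer cells of a type and less RNA per cell cannot be told apart. Of 8 measured HSC markers, 4 fell, against 15.5% of all genes called lower. Among them were Kit, the receptor for stem cell factor (-3.25, limma adjusted p = 0.0125), and Hlf (-1.33, adjusted p = 0.0115). The median DMSO mean of the 8 was 7.83, in a range (7 to 8) where 28.1% of genes were called lower. Kit and Hlf, at DMSO means of 10.94 and 8.88, lay in ranges with 51.7% and 52.4% called lower. The median value of the 8 markers went from between 7.82 and 8.10 in DMSO to 6.97 and 6.63 in ATRA. Once the level trend was removed, 0 of the 8 passed in either direction, with Kit at -0.59 (limma adjusted p = 0.256) and Hlf at 0.28 (adjusted p = 0.504). Hoxb5 did not pass (adjusted p = 0.237), and both its ATRA values lay above all DMSO values. Of 20 measured markers of other marrow cells, 1 of 6 lymphoid markers rose, against 6.48% of all genes called higher. The 8 neutrophil and macrophage and 6 erythroid and megakaryocyte markers did not pass the test. In the fit without the level trend Pf4, a platelet gene, was called higher (2.03, limma adjusted p = 0.0284) and the lymphoid marker was not. The median of the lymphoid markers was between 5.02 and 5.18 in DMSO and 5.40 and 5.74 in ATRA. Their median differences were 0.32 and 0.87 in the ATRA arrays. Over all genes the medians were 0.30 and 0.76 at DMSO means from 4 to 5, and 0.23 and 0.61 from 5 to 6. With the level trend removed the median of the lymphoid list was 0.11. The part of all these markers in the chaperone values was not tested.

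With ATRA, 5 of the 9 measured chaperone genes fell and 0 rose. These were Hspa9, Dnajb1, Ahsa1, Hsph1 and Hsp90aa1, of which Hsp90aa1 turned to a positive difference under cyclic loess normalization (0.062) or removal of the level trend (0.29). Hspa8, Hspa4, Hspd1 and Hspe1 did not pass the test. The calls are those of limma at an adjusted p of 0.05, and the same test called 15.5% of all genes lower and 6.48% higher. That background depends strongly on level. The share called lower was 28.1% of genes at DMSO means from 7 to 8, 52.4% from 8 to 9, 57.5% from 9 to 10, 51.7% from 10 to 11 and 33.8% from 11 to 12, so that 5 of 9 is near the share of genes at the level of the set. The median log2 fold change of the 9 genes was -2.58, against 0.16 over all genes, and all 9 differences were below 0, as in 42% of all genes. In 8 of the 9 genes both ATRA values lay below all 3 DMSO values and in 0 above them, against 29.2% and 33% of all genes. These shares are over genes of every level. At DMSO means from 9 to 10, where the median of the set lies, all genes had median differences of -1.36 and -2.55 in the ATRA arrays. With each array centred on its median, 6 of the 9 genes fell, and the medians were -2.85 for the set and -0.11 for all genes. With the level trend removed the median of the set was -0.46, 6 of 9 differences were below 0 (47.9% of all genes), 0 genes fell and 0 rose at the threshold, and that fit called 1.01% of all genes lower and 2.28% higher.

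**Figure D1:**
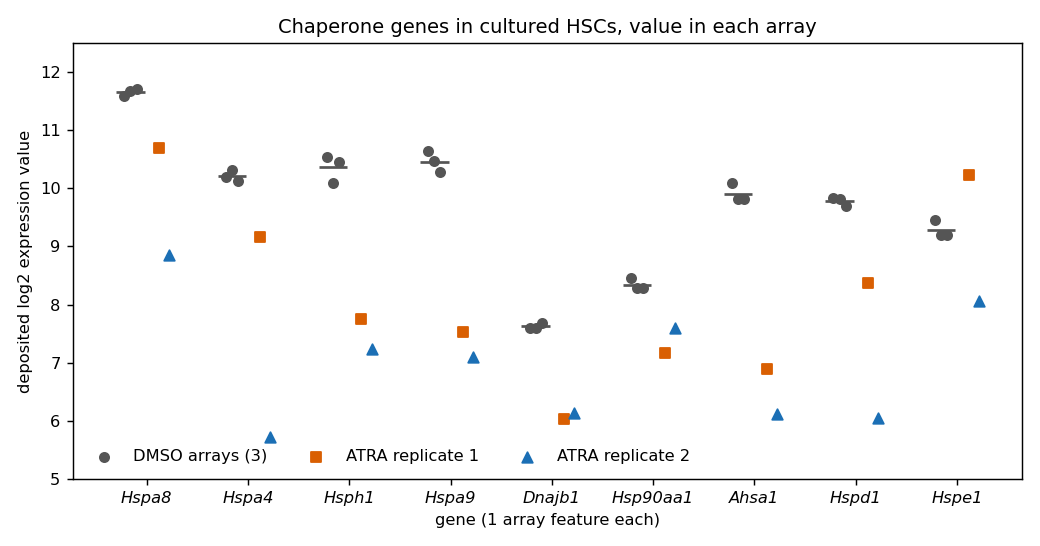
Deposited log2 value (vertical axis) of each measured chaperone gene (horizontal axis) in the 3 DMSO arrays (grey, line at their mean) and in ATRA replicates 1 (orange) and 2 (blue). Both ATRA values lie below the DMSO values in 8 of 9 genes, and Hspe1 has one above (10.23) and one below (8.05).

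Among the cytosolic HSP70 proteins, Hspa8 encodes HSC70, the constitutive form that serves folding and clathrin uncoating in unstressed cells. Its value was 11.60, 11.68 and 11.71 in the DMSO arrays and 10.70 and 8.85 in the ATRA arrays. All DMSO arrays were higher than both ATRA arrays, but the ATRA arrays differed from each other by more than ATRA replicate 1 did from DMSO. The difference of -1.89 on the log2 scale (SE 0.57, limma adjusted p = 0.0816) did not pass. Hspa8 was at percentile 99.6 to 99.7 of all genes within each DMSO array and at 99.1 and 98.7 in the ATRA arrays, a lower place in both. Its differences of -0.96 and -2.81 were set against medians of -1.07 and -3.55 over the 133 genes at DMSO means from 11 to 12. The sign turned under cyclic loess normalization (0.28, limma adjusted p = 0.564) or removal of the level trend (1.12, adjusted p = 0.065), at a level where few genes fix the curve.

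Other array features naming Hspa8 alone gave other pictures. Feature 17434475 stood between 7.731 and 8.005 in DMSO and at 8.005 and 8.017 in ATRA. Features 17548744 and 17548379 shared their DMSO values (8.53, 9.09 and 8.99) and stood at 9.56 in ATRA replicate 1 and at 7.39 and 7.22 in replicate 2. None of these 3 features passed over all features (limma adjusted p from 0.632 to 0.671). A further feature that names Hspa8 together with the small nucleolar RNA gene Snord14e was left out by the rule. It stood at 9.96, 10.22 and 9.57 in DMSO and at 9.90 and 10.98 in ATRA. Its difference was 0.52 (limma adjusted p over all features = 0.358). With the mean of the 4 features naming Hspa8 alone in place of the brightest one, the difference of Hspa8 was -0.67 (adjusted p = 0.322). The other 8 genes had 1 feature each.

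Hspa4 and Hsph1 encode HSP110 proteins, which exchange the nucleotide of HSP70 and hold unfolded proteins. Hsph1 fell with ATRA, and was 7.31-fold lower. It was at 10.55, 10.09 and 10.46 in the DMSO arrays, and the ATRA arrays read 7.75 and 7.24 (difference -2.87, SE 0.24, limma adjusted p = 0.00747). The 2 ATRA values were close to each other and far below the lowest DMSO value. The differences of Hsph1 were -2.61 and -3.13, against medians of -1.42 and -3.23 over the 466 genes at DMSO means from 10 to 11. Hspa4 stood at 10.20, 10.31 and 10.13 in DMSO, and the ATRA arrays read 9.17 and 5.72. Here the ATRA arrays differed by over 3 log2 units, and the difference of -2.77 (SE 1.06, adjusted p = 0.127) did not pass. Within ATRA replicate 1 Hspa4 was at percentile 96.6 of all genes, near its place in the DMSO arrays (97.5 to 98.0), and within ATRA replicate 2 at percentile 26.6. Removal of the level trend left -0.47 for Hsph1 (adjusted p = 0.501) and -0.45 for Hspa4 (adjusted p = 0.636).

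Dnajb1, the J-domain partner of HSP70 that is strongly induced by heat, fell by 1.55 on the log2 scale (SE 0.11, limma adjusted p = 0.00697), which is 2.92-fold lower. Its values were 7.59, 7.59 and 7.69 in DMSO and 6.03 and 6.12 in ATRA. Of the 9 genes it was the one with the smallest spread in either group. The differences of Dnajb1 were -1.59 and -1.50 in the 2 ATRA arrays, larger in size than the medians of -0.48 and -0.76 over the 3409 genes at DMSO means from 7 to 8, of which 28.1% were called lower. Within the arrays Dnajb1 moved from percentile 73.0 to 75.6 of all genes in DMSO to 40.7 and 41.8 in ATRA. After removal of the level trend the difference was -0.81 (adjusted p = 0.082), which did not pass. Both ATRA values of Dnajb1 still lay below all its DMSO values there, as did those of Ahsa1. The share of all genes with such values in that fit was not counted.

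On the HSP90 side, Hsp90aa1, the inducible cytosolic HSP90, had the smallest of the 5 falls, and Ahsa1, the activator of its ATPase, the largest. Hsp90aa1 read 8.46, 8.28 and 8.28 with DMSO, and 7.16 and 7.60 with ATRA, a difference of -0.97 (SE 0.18, limma adjusted p = 0.0295). It was lower in ATRA replicate 1 than in replicate 2, as Dnajb1 was, while in the other genes of the set replicate 2 was the lower one. Its differences of -1.19 and -0.75 lay on either side of the medians of -0.97 and -1.73 over the 2582 genes at DMSO means from 8 to 9. The difference became 0.29 (adjusted p = 0.638) once the level trend was taken out. Within the arrays Hsp90aa1 was at percentile 84.0 to 85.4 of all genes in DMSO. It was at the lower percentile of 76.8 in ATRA replicate 1 and at the higher one of 92.5 in replicate 2. Ahsa1 read 10.10, 9.82 and 9.82 with DMSO, and 6.90 and 6.11 with ATRA, which is 10.6-fold lower (difference -3.41, SE 0.28, adjusted p = 0.00739). Both ATRA arrays stood about 3 log2 units or more below DMSO, at differences of -3.01 and -3.80. Over the 1223 genes at its level (DMSO means from 9 to 10) the medians were -1.36 and -2.55, so Ahsa1 lay below the median in both arrays. Once the level trend was taken out, its difference of -1.23 (adjusted p = 0.0691) was the most negative of the set and did not pass.

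**Figure D2:**
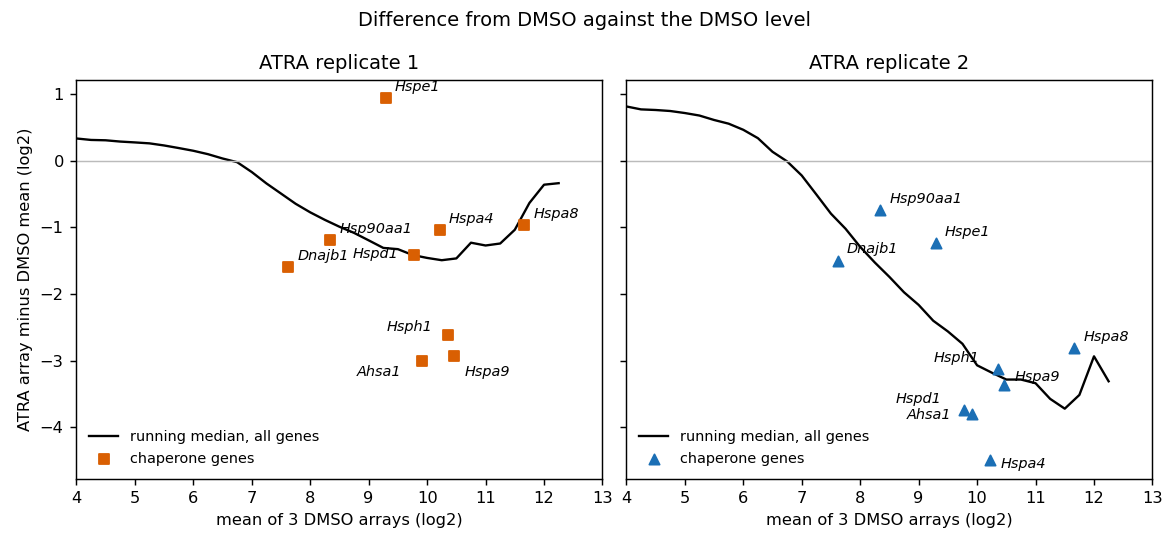
Difference of ATRA replicate 1 (left) and replicate 2 (right) from the DMSO mean in log2 units (vertical axis) against the DMSO mean (horizontal axis), with points for the 9 chaperone genes and a line for the running median of all genes. Ahsa1, Dnajb1 and Hspa9 lie below the line in both arrays, Hspa9 only slightly in replicate 2. Hspe1 lies above it in both, while Hspa4 lies above it in replicate 1 and below it in replicate 2.

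Of the 3 mitochondrial chaperone genes, Hspa9 passed the test and Hspd1 and Hspe1 did not. Hspa9, the HSP70 of the mitochondrial matrix, was 8.87-fold lower with ATRA. It read 10.64, 10.47 and 10.28 with DMSO, and 7.53 and 7.10 with ATRA, a difference of -3.15 (SE 0.20, limma adjusted p = 0.00648). The ATRA arrays were close to each other. The fall in replicate 1, -2.93, was larger than the median of -1.42 at its level, and the fall in replicate 2, -3.37, was near the median of -3.23. Taking out the level trend left -0.71 (adjusted p = 0.363). Hspd1, the HSP60 barrel, was at 9.83, 9.82 and 9.69 in DMSO and at 8.37 and 6.04 in ATRA. Both ATRA values were below DMSO, but they differed by over 2 log2 units from each other, and the difference of -2.58 (SE 0.72, adjusted p = 0.0683) did not pass. Hspe1, the HSP10 lid, read 9.46, 9.21 and 9.21 with DMSO, and 10.23 and 8.05 with ATRA. It was the only measured gene of the set whose groups overlapped, with ATRA replicate 1 above and replicate 2 below all DMSO arrays (difference -0.15, SE 0.68, adjusted p = 0.868). Within the arrays Hspe1 was at percentile 93.2 to 94.6 of all genes in DMSO and at 98.7 and 96.6 in ATRA, higher in both. Apart from Hsp90aa1, the other measured genes of the set were at lower percentiles in both ATRA arrays.

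Hspd1 and Hspe1, whose windows share the heat shock element printed above, were set side by side because of this position, after their values were seen, so what follows is a description with no test. Their features had DMSO means of 9.78 and 9.29. The log2 value of Hspd1 minus that of Hspe1 was 0.37, 0.62 and 0.49 in the DMSO arrays and -1.86 and -2.01 in the ATRA arrays. This within-array difference varied little inside each group, although each gene alone varied by over 2 log2 units between the ATRA arrays. Its group means differed by -2.43, and by -2.17 after removal of the level trend. Such a within-array difference does not show which of the genes differed. Other gene pairs were not compared, so how common such steadiness is was not tested. A shift that Hspd1 and Hspe1 share within an array cancels in it. All genes at DMSO means from 9 to 10, where both lie, had median differences of -1.36 and -2.55 in the ATRA arrays. Both genes have processed copies in the genome, with 23 pseudogenes in the RefSeq gene table that carry the name of Hspd1 and 7 that carry that of Hspe1, and whether probes of these features also detect such copies was not tested. With the level trend removed Hspe1 was higher by 1.70 (limma adjusted p = 0.0606) and Hspd1 lower by a difference of -0.46 (adjusted p = 0.382). Hspe1 passed as higher after cyclic loess normalization (1.52, adjusted p = 0.0189) and without ATRA replicate 2 (0.94, adjusted p = 0.0374), and as lower without ATRA replicate 1 (-1.24, adjusted p = 0.0133).

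**Figure D3:**
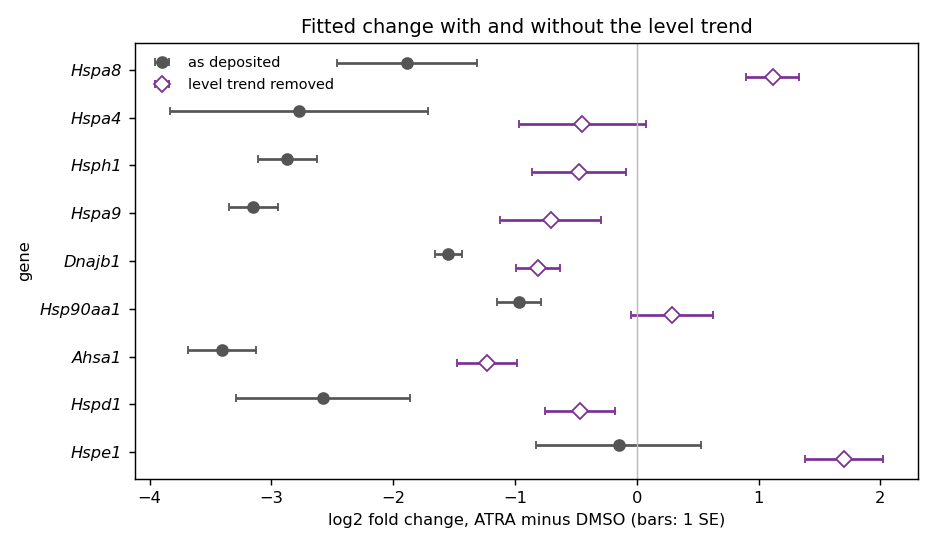
Fitted log2 fold change, ATRA minus DMSO (horizontal axis, bars 1 SE), of each chaperone gene as deposited (filled grey) and with the level trend removed (open purple). Differences as deposited run from -3.41 (Ahsa1) to -0.15 (Hspe1), and with the trend removed from -1.23 (Ahsa1) to 1.70 (Hspe1).

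The 5 calls rested on all 3 DMSO arrays. Without DMSO replicate 1, 2 or 3, 0 of the 9 genes passed and 0 of all genes (limma, with 5 of the 9 at an unadjusted p under 0.05 each time), though all 9 differences stayed negative. Without ATRA replicate 1, 9 fell, and without ATRA replicate 2, 8 fell and Hspe1 rose, in fits that assume the lone ATRA array to vary like the DMSO arrays. After cyclic loess normalization 2 fell, Dnajb1 (-1.30, adjusted p = 0.0111) and Ahsa1 (-2.02, adjusted p = 0.0099). In 4 of the 9 genes (Hsp90aa1, Hspe1, Dnajb1 and Ahsa1) 2 of the DMSO arrays held the same value to the last deposited digit, as in 39.9% of all genes. How these equal values arose is not stated, and their part in the calls was not tested.

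The wider chaperone network was read from 7 lists with 74 genes, of which 68 were measured. Of these, 24 fell, 1 rose and 43 did not pass, with a median difference of -0.77 against 0.16 for all genes. The same background holds as for the set itself, 15.5% lower and 6.48% higher. Their DMSO means had a median of 7.66, in a range where 28.1% of genes were called lower. Those means ran from 4.75 to 10.80, so this share is not that at the level of each gene. With the level trend removed 3 were lower, 1 was higher and the median was 0.10. In 4 of the 68 genes all 3 DMSO arrays held the same value, and in 2 all 5 arrays did. These genes are counted among the 43 that did not pass, and how their equal values arose is not stated.

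Of the 17 measured co-chaperones of HSP90, 9 fell and 0 rose (median -1.48). Their median DMSO mean was 8.39, and of all genes at DMSO means from 8 to 9 the share called lower was 52.4%, so this count is near that of their level. Fkbp8, a membrane-anchored immunophilin, fell (-2.45, limma adjusted p = 0.00697), as did Pih1d1, a subunit of the R2TP complex (-1.76, adjusted p = 0.00887), and Sgta, a co-chaperone of tail-anchored proteins (-2.26, adjusted p = 0.00999). Stip1 (HOP), Cdc37 and St13 (HIP) are named after their values were seen. Stip1, the adaptor that holds HSP70 and HSP90 together, was at 10.66, 10.62 and 10.55 in DMSO and at 8.19 and 6.00 in ATRA. It fell by 3.51 (SE 0.68, adjusted p = 0.0316), more than any gene of the set, and was 1 of 3 network genes still called lower with the level trend removed (-1.0, adjusted p = 0.0421). St13, which steadies the ADP-bound form of HSP70, fell by 2.15 (adjusted p = 0.0144) and was called there too (-0.86, adjusted p = 0.0473). Cdc37, which brings kinases to HSP90, read 9.30, 9.44 and 9.24 with DMSO, and 6.15 and 7.25 with ATRA (adjusted p = 0.0154). Its call ended with the level trend removed (-0.76, adjusted p = 0.524), as did those of Fkbp8, Pih1d1 and Sgta, whose differences were then between -0.35 and -0.09.

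Among the J-domain proteins, 6 of 13 measured fell and 0 rose (median -0.90), at a median DMSO mean of 8.08, where the same 52.4% of genes were called lower. Dnajc9, which also binds histones, fell (-1.52, limma adjusted p = 0.00699), as did Dnajc7, which binds both HSP70 and HSP90 (-1.05, adjusted p = 0.0113), and Dnajc5, a cysteine-string protein (-2.48, adjusted p = 0.0147). With the level trend removed Dnajc5 kept its call (-1.05, adjusted p = 0.0388), while Dnajc9 and Dnajc7 turned to 0.19 and 0.70 and did not pass, and Dnajc7 was at 0.41 after cyclic loess normalization. Dnajc2, a chaperone at the ribosome named after its values were seen, did not pass as deposited (-0.70, adjusted p = 0.132) and was higher with the trend removed (0.98, adjusted p = 0.0352). Of the genes listed as nucleotide exchange factors 4 of 7 fell and 0 rose (median -0.83). Their median DMSO mean was 7.72, in the range with 28.1% called lower. Among them were Hspbp1 (-1.29, adjusted p = 0.0104), Bag6 (-2.37, adjusted p = 0.0156) and Bag4 (-0.83, adjusted p = 0.0281). Hspbp1 and Bag6 had higher DMSO means, 9.04 and 10.01, in ranges with 57.5% and 51.7% of genes called lower. Without the level trend Hspbp1, Bag6 and Bag4 were at 0.42, -0.15 and -0.15 and did not pass, and Hspbp1 was at 0.086 after cyclic loess normalization. With the mean of the 2 features of Bag4 in place of the brighter one, its difference was -0.11 (adjusted p = 0.706).

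Of 10 measured mitochondrial chaperones and proteases, 4 fell and 0 rose (median -1.11), at a median DMSO mean of 8.41, where 52.4% of genes were called lower. Lonp1, the matrix protease, fell by 2.49 (limma adjusted p = 0.00675), from 9.43, 9.08 and 9.08 in DMSO to 6.61 and 6.79 in ATRA. Both nucleotide exchange factors of HSPA9 fell too, Grpel1 (-1.58, adjusted p = 0.0184) and Grpel2 (-1.08, adjusted p = 0.013). The other was Trap1, the mitochondrial HSP90, which fell by 2.46 (adjusted p = 0.0305) and is named after its values were seen. Their calls all ended with the level trend removed, where the differences ran from -0.84 for Trap1 to 0.17 for Grpel2.

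The last 3 lists had lower DMSO levels, with median DMSO means of 6.48 for the other HSP70 family genes, 6.19 for the small heat shock proteins and 6.43 for the heat shock factors. Of all genes at DMSO means from 6 to 7, 2.65% were called lower and 4.36% higher. Of 9 other HSP70 family genes 1 fell and 8 did not pass (median -0.14). Hspa14, an HSP70 of the ribosome-associated complex with a DMSO mean of 8.62, fell by 1.45 (limma adjusted p = 0.0198). Its difference was -0.37 (adjusted p = 0.155) after cyclic loess normalization and -0.011 (adjusted p = 0.971) with the level trend removed. Hspa4l, a further HSP110, differed by -1.67 (adjusted p = 0.139) and Hspa1l by 0.32 (adjusted p = 0.148). Hspa1a, the stress-induced HSP70 and named after its values were seen, was at 4.79, 4.79 and 4.67 in DMSO and at 6.43 and 4.77 in ATRA (adjusted p = 0.253). Only ATRA replicate 1 lay above its DMSO range. Its near-identical copy Hspa1b was at 5.68, 5.83 and 5.62 in DMSO and at 5.31 and 6.16 in ATRA (adjusted p = 0.94), and how probes divide between the copies was not tested.

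Of 8 genes listed as small heat shock proteins, 0 rose and 0 fell (median 0.42). Hspb1 was at 0.39 (limma adjusted p = 0.107), Cryab at 0.87 (adjusted p = 0.12) and Hspb11 at 1.16 (adjusted p = 0.233). At DMSO means from 6 to 7, where the median of this list lies, the median differences over all genes were 0.041 and 0.157 in the 2 ATRA arrays, and at DMSO means from 5 to 6 they were 0.23 and 0.61. Of the 4 measured genes in the list of heat shock factors, which also holds the binding protein gene Hsbp1, Hsf4 rose by 0.56 (adjusted p = 0.0389), from 6.68, 6.73 and 6.73 to 7.18 and 7.37, and the others did not pass. Hsf5 differed by 0.88 (adjusted p = 0.0838) and Hsf2 by -0.54 (adjusted p = 0.103). Hsf1, the main factor of the heat shock response, was not analysed here. Hsf4 did not pass after quantile normalization, with each array centred on its median or with the level trend removed (0.62, adjusted p = 0.073).

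**Figure D4:**
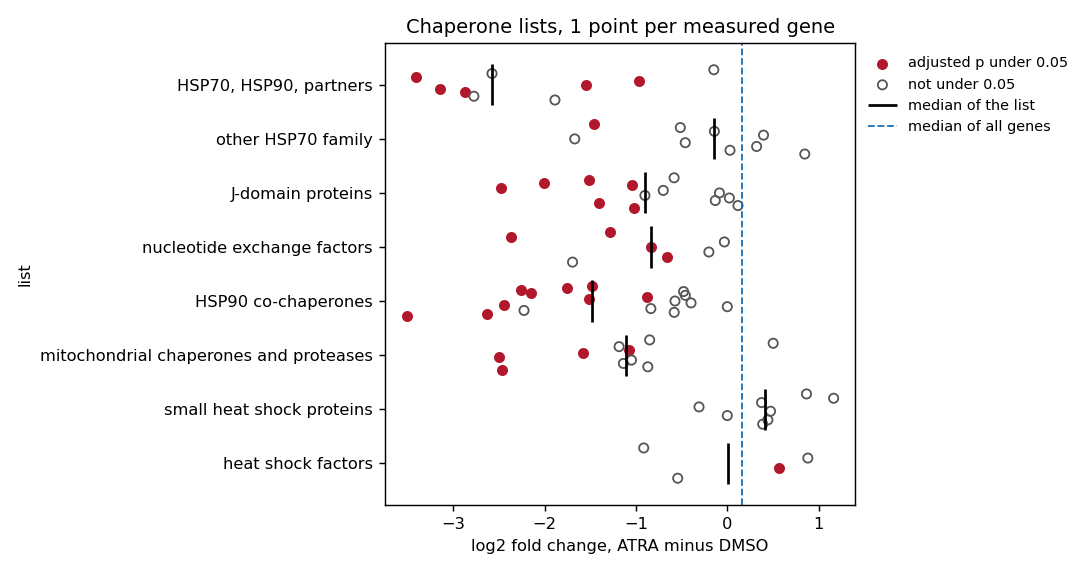
Fitted log2 fold change, ATRA minus DMSO (horizontal axis), of every measured gene of the set and of the 7 network lists (rows), filled red at an adjusted p under 0.05 and open otherwise, with the median of each list (black) and of all genes (dashed, 0.16). List medians run from -2.58 for the set to 0.42 for the small heat shock proteins.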

How the data were processed

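The authors deposited log2 expression values for each array feature. RMA, oligo 1.36.1 and limma 3.28.20 appear in the submitters' processing notes without a stated role. Which genome build and annotation were used is not given in the sources used here. Values were used as deposited. Features were named through the platform table, with symbols updated by gene identifier. Features naming several genes were not used, and the brightest feature stood for each of 22180 genes. ATRA was compared with DMSO by limma 3.58.1 (R 4.3.3, lmFit, eBayes and group means). Tests were two-sided at a threshold of 0.05 after Benjamini-Hochberg adjustment over all genes, with 3 residual and 1.52 prior degrees of freedom. Each adjusted p is from this test unless features are named. The level trend was removed per array by loess (span 0.3) on the DMSO mean. Named genes were the whole set and the up to 3 genes with the smallest p in each network list, and any other is marked in the text. Members and lists were chosen with earlier results of these data known. The number of arrays limits precision.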

Additional observations from a re-analysis of the deposited data

How the results depend on the processing

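Whether the replicate numbers pair the arrays could not be decided. Deviations from the group means correlated at 0.05 for both numbers. With 2 ATRA arrays, however, the deviations of one mirror those of the other, so these are not separate checks. A fit with the replicate number as a block called 0 genes of the set, 0 of the network and 0 of all genes in either direction (limma, with 6 of the 9 genes of the set at an unadjusted p under 0.05), and so did array weights (8 of the 9). Counts are given below as lower and higher. Leaving out 1 array at a time gave 0 to 9 and 0 to 1 genes of the set, 0 to 44 and 0 to 9 of the network, 0 to 6783 and 0 to 7424 of all genes, and medians of the set from -3.13 to -1.41. Cyclic loess normalization gave 2 and 1 for the set (median -1.15), 6 and 2 for the network and 1504 and 771 for all genes. Quantile normalization gave a median of -2.27, 10 and 0 for the network and 1743 and 439 for all genes. With the level trend removed the median was -0.46, with 0 and 0 for the set, 3 and 1 for the network and 223 and 505 for all genes. Centring each array gave a median of -2.85, 0 higher network genes and 560 higher genes in all. Without the empirical Bayes prior the network had 9 and 0 and all genes 1244 and 447. At an adjusted p under 0.1, 2 network genes and 3083 of all genes were higher, and 0 network genes were higher at a minimum of 1.5-fold. Leaving out dim features gave 516 higher genes. The differences of Hsp90aa1 (0.062 and 0.29), Hspa8 (0.28 and 1.12), Hspe1 (1.52 and 1.70), Hspa1l (-0.19 and -0.16), Dnajc7 (0.41 and 0.70) and Hspbp1 (0.086 and 0.42) changed sign under cyclic loess normalization and removal of the level trend, given in that order. Those of Dnajc9 (0.19) and Grpel2 (0.17) changed sign with the level trend removed, and those of Hspe1 (0.54) and Hspa1l (-0.067) after quantile normalization. Leaving out 1 array moved Hspe1 between -1.24 and 0.94. The causes were not tested.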
